A study of Mus musculus with 16 samples.

Results

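The effect of an RNA hairpin against Hif1a was read in cultured sensory ganglia by setting 6 knockdown arrays against 6 control arrays, 12 of the 16 arrays of the study. These arrays were chosen by their labels alone, HIF1α_shRNA or Control_shRNA, at every collection time. The ganglia were dorsal root ganglia of CD-1 mouse embryos at embryonic day 13, grown as spot cultures. On day 4 in culture all of them received lentivirus, either with MISSION control shRNAs or with MISSION shRNAs for HIF-1α (knockdown), and on day 7 they were collected uninjured, or cut with a blade and collected 3 h or 12 h later, 2 arrays for each construct and time. The 4 remaining arrays came from cultures of the same kind that received human HIF-1α in the FUGW lentiviral vector (overexpression), and they serve here as a second group for comparison. They were 1 uninjured, 2 at 3 h and 1 at 12 h. No culture was free of virus, 2 hairpins against HIF-1α are named and it is not said whether they were used together, and the labels do not give the culture or animal behind each replicate. The p-values therefore rest on the spread between arrays alone, and that spread may be technical.

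The protein HIF-1α is the part of the transcription factor HIF-1 that responds to oxygen. In normal oxygen it is hydroxylated and degraded, and when oxygen falls it pairs with its partner ARNT and binds a short DNA motif near genes for glucose uptake, glycolysis and vessel growth. A short hairpin RNA lowers its target by guiding the RNA interference machinery to the target's messenger RNA. Dorsal root ganglia hold the cell bodies of sensory neurons of touch, pain and body position, wrapped by satellite glia and joined by Schwann cells, fibroblasts and vessel cells, and their axons regrow after injury.

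The Illumina Mouse Ref-8 v2.0 BeadChip was used. Values by array are deposited intensities in arbitrary units, in which 0 is background and 16 was the cutoff for a probe above background. Differences are knockdown minus control on the log2 scale after an offset of 50, taken within each time and then averaged, and this scale understates the change of dim genes. Of 11151 genes tested, one is called when limma's Benjamini-Hochberg adjusted p is under 0.05, and "rose" and "fell" are used of called genes. Replicate arrays correlated across genes at 0.994 to 0.996, arrays of 1 construct at different times at 0.992 to 0.996, and knockdown with control arrays at 0.946 to 0.952. No label names a batch, and the virus preparation differs with the construct, so the hairpin and any batch of virus or culture cannot be told apart. Of the 20 sensory neuron markers listed for a check of the tissue, 17 were on the array and 14 were above 16 on all 6 control arrays, among them the neuronal growth protein Stmn2 and the transcription factors Isl1 and Pou4f1. Nefl and Snap25, which neurons express widely, were below the cutoff on all 12 arrays compared.

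The single mouse Hif1a probe (ILMN_2852034) was dim. Its intensity in control cultures was 42.7 and 21.3 uninjured, 28.3 and 36.3 at 3 h, and 25.5 and 25.9 at 12 h. After knockdown it was -3.66 and 0.889 uninjured, -0.632 and 1.40 at 3 h, and -6.68 and -7.15 at 12 h. All 6 control arrays were above the cutoff and all 6 knockdown arrays below it, without overlap. Hif1a fell by 0.59 (SE 0.0685, adjusted p = 1.71e-07; limma), by 0.59, 0.56 and 0.63 in the order of the times, and was at least 1.82-fold lower when the knockdown arrays are set at the cutoff. The probe was also below the cutoff on the 4 overexpression arrays, so its level does not separate knockdown from overexpression (difference -0.07, adjusted p = 0.472).

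Much of the transcriptome differed. In the average of the 3 times limma called 6653 genes (59.7% of those tested), of which 3492 rose (31.3%) and 3161 fell (28.3%). Most of these differences were small, and 972 genes (8.72%) reached 2-fold: 556 genes were at least 2-fold higher (4.99%) and 416 at least 2-fold lower (3.73%), and with deposited values floored at 16 in place of the offset, which widens the differences of dim genes, these counts became 1049 and 884. All 6 knockdown arrays lay above or all below the 6 control arrays for 4339 genes (38.9%), 2307 of them above (20.7%) and 2032 below (18.2%). Where a gene had further probes the direction mostly held, and the size often did not. Of 151 genes at least 2-fold higher with 2 or more probes kept, 140 (92.7%) had every probe on the same side and 45 (29.8%) had every probe at least 2-fold higher. Of 150 at least 2-fold lower, 149 (99.3%) and 56 (37.3%) did.

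The 20 genes that rose furthest span growth arrest, receptor signaling, secreted peptides and metabolism, and gained between 3.14 and 4.85. Phlda3, a p53-induced protein that holds back Akt at the membrane, ranged from 51.3 (median 81.5) to 115 over the control arrays and from 3401 (median 4177) to 5237 after knockdown. Cdkn1c, the cyclin-dependent kinase inhibitor p57, ranged from 23.2 (median 37.7) to 44.1 in control and from 816 (median 1127) to 1314 after knockdown, a rise of 3.44 (SE 0.0712, adjusted p = 3.69e-19). Ccnd2, which encodes cyclin D2 and so a partner of the kinases that drive entry into the cell cycle, rose as well, by 3.23 (SE 0.105, adjusted p = 2.72e-16), from 92.1 (median 218) to 258 in control and from 2025 (median 2482) to 2645 after knockdown. An inhibitor and an activator of the cell cycle were thus both among the largest rises, with no overlap between groups for either. Egr1, an immediate early transcription factor of growth factor and activity signals, rose by 3.18 (SE 0.0921), with the knockdown arrays spread from 638 (median 1176) to 1938 and the control arrays from 22.7 (median 68.2) to 99.3.

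Signaling and secreted proteins made up another share of these rises. The receptor tyrosine kinase Axl was near background in control cultures, from 2.19 (median 7.70) to 18.1, and ran from 1052 (median 1437) to 1712 after knockdown. Mfge8, a secreted protein that bridges dying cells to phagocytes, rose by 3.15, and its second probe by 1.95. Aatk, a neuronal kinase first described in cells entering apoptosis, rose by 3.22, and Arap3, which switches off small GTPases at the membrane, by 3.27. Both were above the cutoff on every control array, where Aatk spanned 138 to 181 and Arap3 24.0 to 52.6. The peptide hormone genes Sct (secretin) and Uts2b (urotensin-related peptide) ran from 39.5 to 59.6 and from 3.26 to 24.3 in control, and from 1252 to 1866 and from 1017 to 1352 after knockdown. The small heat shock protein gene Hspb1 rose by 4.65, and S100a6, a calcium-binding protein, by 3.20. The metabolic genes in this group were Acaa1b, a peroxisomal thiolase of fatty acid oxidation (3.37), Akr1b10, an aldo-keto reductase (3.17, second probe 1.10), Cox6b2, a testis-type subunit of cytochrome oxidase (3.84), and Got1l1, which resembles a transaminase (3.19). For Cox6b2 a second probe differed by 0.42 only, so the size of its rise rests on 1 probe. Ptprv (4.11), Efcab6 (3.58), Aard (3.14) and Pidd1, 12.1-fold higher, complete the 20 largest rises.

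The 20 genes that fell furthest lost between 2.35 and 3.58 and included proteins of mitochondria, lipid synthesis, vesicle traffic and the axon surface. Pkia, an inhibitor of protein kinase A, ran from 4926 (median 5751) to 6247 in control and from 330 (median 426) to 479 after knockdown. Of 4 genes for mitochondrial proteins, Ppif, the cyclophilin that sensitizes the permeability transition pore, fell by 3.23, Tmem14c, a transporter of the heme pathway, by 2.84, Timm8b, a chaperone of protein import, by 2.61, and Smim26 by 2.36. Tmem14c had 2 further probes, at -2.86 and -2.72, and the second probe of Timm8b stood at -2.58, so different probes gave the same size. Nudt19, a hydrolase of coenzyme A, fell by 2.84.

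Genes for lipid and membrane proteins were among these falls. Stard4, a carrier of cholesterol between membranes, ran from 1817 (median 2459) to 2957 in control and from 211 (median 256) to 444 after knockdown, and fell by 2.81 (SE 0.0864, adjusted p = 1.08e-16). Sptssa, a small subunit of serine palmitoyltransferase, the first enzyme of sphingolipid synthesis, ran from 683 (median 1020) to 1323 in control and from 61.3 (median 71.7) to 127 after knockdown, and fell by 2.84 (SE 0.108). The catalytic subunit gene Sptlc2 fell by 0.94, from 45.8 (median 69.2) to 76.9 in control to values below the cutoff on all 6 knockdown arrays. Of 13 sphingolipid synthesis genes tested, 4 rose and 6 fell (median -0.04). Copz1, a subunit of the coat of Golgi vesicles, fell by 2.48, and Vamp2, the SNARE protein of synaptic vesicles, by 3.00. Cntn1, an adhesion molecule of axons, was among the brightest genes in control, from 5022 (median 5815) to 6452, and ran from 755 (median 1124) to 1343 after knockdown. Gpc3, a heparan sulfate proteoglycan that binds growth factors, fell by 2.80. Its second probe stood at -2.51.

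Further large falls were in genes of chromatin, translation and signaling. Hmgn2, which loosens chromatin at nucleosomes, fell by 3.10, and of the 8 genes for high mobility group proteins tested, Hmgn1 also fell (-1.69) while Hmgn3 (1.29) and Hmga1 (1.11) rose. Sub1, a transcription coactivator, fell by 3.11, and Denr, a factor that lets ribosomes start again after a short upstream reading frame, by 2.50. Adcyap1, the gene of the neuropeptide PACAP, ran from 502 (median 659) to 889 in control and from 40.5 (median 64.9) to 84.2 after knockdown. Ifit3, an interferon-induced gene, fell by 2.46, although its second probe stood at -0.72. Sccpdh (-2.80), Itm2a (-2.71) and Amz2 (-2.35) complete the 20 largest falls. Over these 40 genes limma's adjusted p reached 4.32e-15 at most, and no knockdown array overlapped a control array. Both follow from the choice, as the genes were picked for the size of their difference on these same arrays. Overlap was also absent for all 556 genes at least 2-fold higher, all 416 at least 2-fold lower, and 38.9% of all genes tested.

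**Figure D1:**
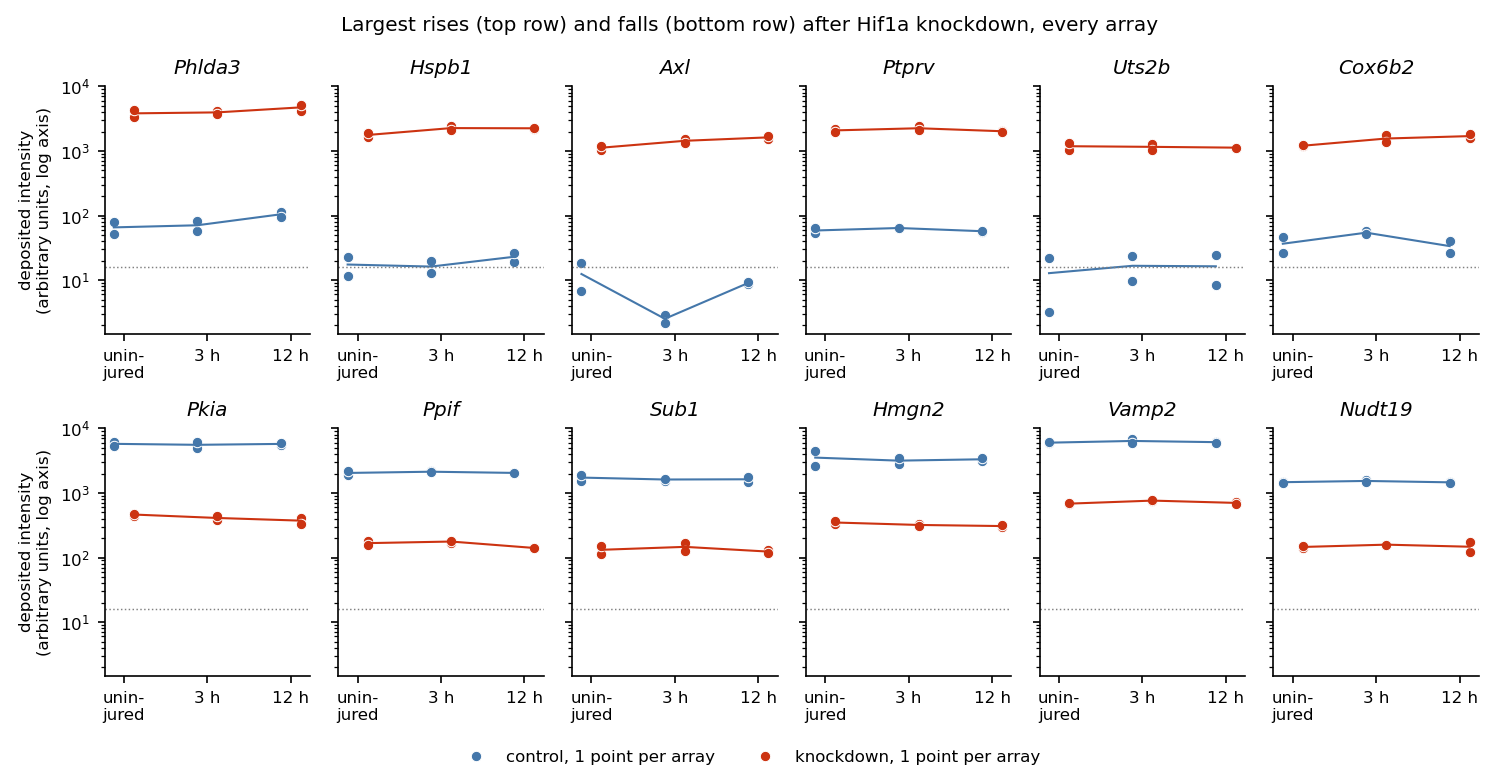
Deposited intensity (arbitrary units, log axis) of the 6 largest rises (top row) and 6 largest falls (bottom row) at each time. Each point is 1 array, lines join the means of 2 arrays, control arrays are blue, knockdown arrays red, and the dotted line is the cutoff of 16. In every panel the 6 knockdown arrays lie apart from the 6 control arrays at all 3 times, as for Phlda3, with 51.3 to 115 in control and 3401 to 5237 after knockdown. The genes were chosen for the size of this difference.

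The differences ran in parallel in uninjured cultures and after the cut. Uninjured, 2444 genes rose (21.9%) and 2045 fell (18.3%). At 3 h, 2585 rose (23.2%) and 2307 fell (20.7%), and at 12 h 2460 rose (22.1%) and 2260 fell (20.3%). At all 3 times 1844 genes rose (16.5%) and 1551 fell (13.9%). Each time had its own 4 arrays, with no array in common. Across genes, which are not independent replicates, differences uninjured and at 3 h correlated at r = 0.940 (Spearman 0.870), uninjured and at 12 h at r = 0.941 (Spearman 0.869), and at 3 h and 12 h at r = 0.945 (Spearman 0.874). Of genes called in the average, 97.5% had the same sign at all 3 times, against 33.6% of those not called. The average is made of these 3 differences, so choosing genes by it favors agreement between times. These shares are therefore no separate evidence of consistency. Each of the 972 genes, chosen in the same way for at least a 2-fold difference in the average, was called in that direction at every time. Of these, 430 were at least 2-fold higher and 319 at least 2-fold lower at each of the 3 times taken alone. The gap between a gene's largest and smallest difference over the times was small, with a median of 0.27 for the genes at least 2-fold higher and 0.23 for those at least 2-fold lower.

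No gene's difference was called as changing with time. Limma's F test between times called 0 of 11151 genes (0.0%), with a smallest adjusted p of 0.269, and 648 (5.81%) had an unadjusted p under 0.05. The 6 genes with the smallest p are given as values only. Serpine2, an inhibitor of extracellular proteases, stood at 2.59 uninjured, 3.36 at 3 h and 3.45 at 12 h, and the stress-induced gene Nupr1 at 1.69, 2.21 and 2.62. Amigo2, an adhesion molecule of neurons, stood at -1.02, -1.55 and -1.86. Cd40, a receptor of the tumor necrosis factor family, stood at 0.93, 0.86 and 1.73, but its 2 other probes averaged only 0.02 and 0.42 over the times. The serotonin receptor gene Htr1d stood at 1.23, 0.53 and 0.50. The ubiquitin-conjugating enzyme gene Ube2q2 stood at -0.17, 0.54 and -0.35, and its 2 other probes averaged -0.15 and -0.10 over the times. Ube2q2 was also 1 of 5 genes (0.0448%) called in opposite directions at 2 times. The others with a gene name were Ninl (-0.35, 0.50 and 0.28), S100a10 (-0.57, 0.39 and -0.09) and Tnfaip8l1 (0.16, -0.36 and 0.30), and for all 4 the control and knockdown arrays overlapped over the times.

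**Figure D2:**
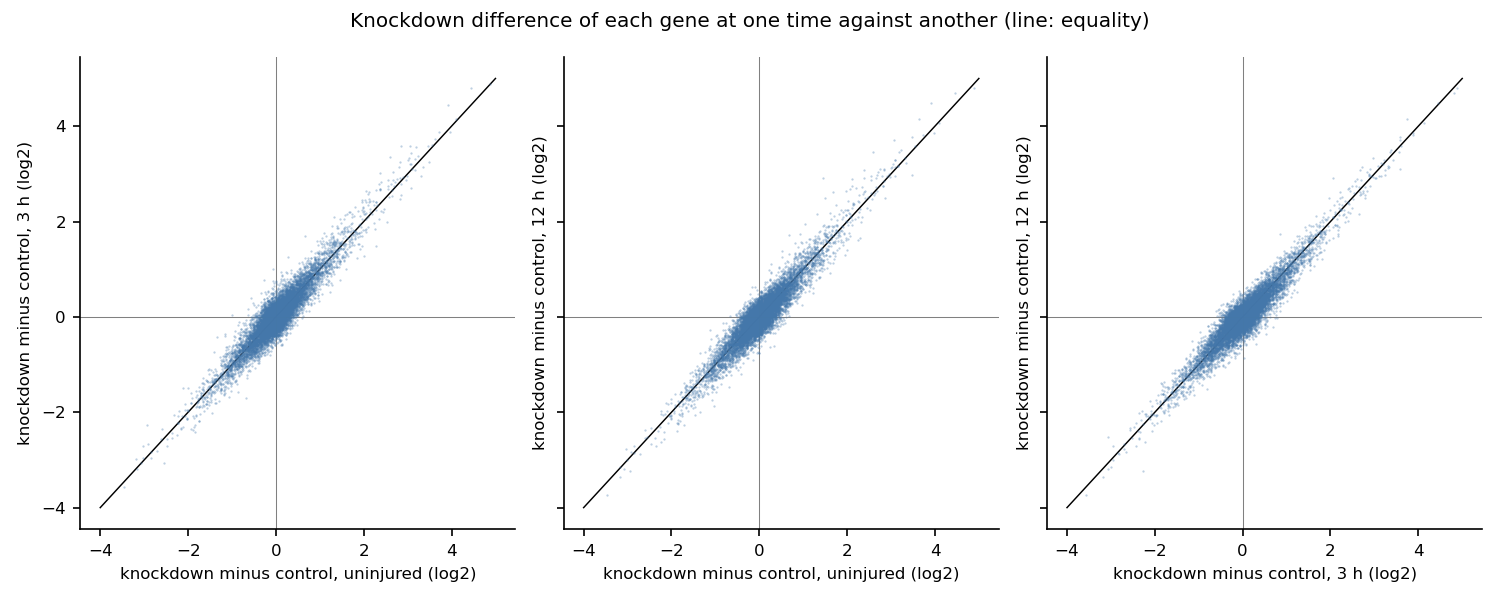
Knockdown minus control (log2) of each of 11151 genes at one time against another, with the line of equality. The clouds follow the line in all 3 panels (r = 0.940, 0.941 and 0.945 across genes), and the genes with large differences stand on the same side at both times.

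Genes that HIF-1 is known to induce moved both ways against control. Of 19 genes of glucose uptake and glycolysis tested, 11 fell, 2 rose and 6 were not called (median -0.36, against 0.00 for all genes). Tpi1, triosephosphate isomerase, ran from 12370 (median 13272) to 13733 in control and from 5623 (median 6022) to 6621 after knockdown. It fell by 1.12 (SE 0.0634), and 2 further probes stood at -1.32 and -1.09. Aldoc, an aldolase, fell by 0.95 (SE 0.0770), from 1252 (median 1517) to 1778 in control to between 665 and 839, while the glucose transporter gene Slc2a1 rose by 0.93 (SE 0.0690), from 492 (median 509) to 572 in control to between 941 and 1218. Ldha, lactate dehydrogenase A, fell by 0.37, and Pdk1, the kinase that keeps pyruvate out of mitochondria, by 0.59. Of 30 other HIF targets, 13 rose (43.3%), 8 fell (26.7%) and 9 were not called (median 0.14). Over all genes tested 31.3% rose and 28.3% fell, and the counts of every list are to be read against these shares. Egln3, a HIF prolyl hydroxylase, fell by 1.19 and Bhlhe40, a transcription repressor, by 0.71, and Ddit4, an inhibitor of mTOR signaling, rose by 1.69. Neither list moved in 1 direction as a whole.

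The letters of the HIF response element were looked up in the RefSeq promoter windows of mouse build GRCm38.p6, from 250 bases before to 50 after a gene's start. The element's core was searched as ACGTG or GCGTG on either strand, where a match on one strand may overlap one on the other. It was present in a window of 65.6% of the 8517 tested genes with a window, in 56.2% of 422 genes at least 2-fold higher, in 65.3% of 314 at least 2-fold lower and in 61.4% of 3366 not called, and 43.8% of all 32851 windows in the table held it. Of 18 glycolysis genes with a window, 17 held it. A match is a description of the letters and not a binding site. Windows of 3 genes are shown to set genes that fell or rose with and without a match side by side, with matches in capitals: Aldoc fell and has 3 matches in the window shown (chr11:78322823-78323122, plus strand) and 1 in a second window, Slc2a1 rose and has 2 (chr4:119108495-119108794, plus strand), and Tpi1, with the largest fall of the list, has 0 (chr6:124814109-124814408, minus strand).
Aldoc: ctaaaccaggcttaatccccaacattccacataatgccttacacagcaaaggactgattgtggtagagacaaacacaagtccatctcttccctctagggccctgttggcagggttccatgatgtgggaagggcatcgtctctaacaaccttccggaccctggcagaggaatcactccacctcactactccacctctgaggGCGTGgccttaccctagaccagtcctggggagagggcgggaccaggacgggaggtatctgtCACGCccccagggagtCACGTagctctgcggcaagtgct
Slc2a1: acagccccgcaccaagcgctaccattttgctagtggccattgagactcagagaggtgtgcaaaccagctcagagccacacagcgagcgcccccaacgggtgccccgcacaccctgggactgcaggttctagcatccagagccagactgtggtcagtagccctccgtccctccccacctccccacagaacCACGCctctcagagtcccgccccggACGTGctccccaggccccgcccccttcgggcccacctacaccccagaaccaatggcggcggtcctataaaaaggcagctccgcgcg
Tpi1: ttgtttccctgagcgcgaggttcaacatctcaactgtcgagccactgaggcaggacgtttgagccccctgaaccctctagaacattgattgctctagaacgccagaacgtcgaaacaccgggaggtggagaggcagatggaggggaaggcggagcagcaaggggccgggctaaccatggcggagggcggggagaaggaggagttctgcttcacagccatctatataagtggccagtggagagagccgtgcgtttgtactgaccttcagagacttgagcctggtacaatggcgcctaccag

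Targets of p53, a transcription factor that halts the cell cycle or starts cell death after stress, had the highest median of the 59 gene families and lists examined that had 6 or more genes tested, markers apart. Of 28 tested, 23 rose, 2 fell and 3 were not called (median 0.92), and 12 were at least 2-fold higher. The lists were chosen with earlier results of these data known, so this rank is a description only. Besides Phlda3, Ptprv and Pidd1, Gtse1, a microtubule protein that also restrains p53, rose by 2.86 (SE 0.0677), from 33.3 (median 52.8) to 55.8 in control to between 634 and 932. Dcxr, a sugar reductase, rose by 2.56, Polk, a polymerase that copies past damaged DNA, by 1.77, and Ercc5, a nuclease of DNA repair, by 1.67. Zmat3, an RNA-binding target of p53, fell by 1.15 and Rrm2b, a subunit of ribonucleotide reductase, by 0.43. Members of the list thus did not move as one. Against overexpression 17 of the 28 were higher and 6 lower (34.0% and 28.8% of all genes). Overexpression itself stood above control for Phlda3 (3.84), Pidd1 (1.66), Gtse1 (1.53) and Ptprv (0.46), so these rises were not particular to knockdown. In the Bcl2 family, which sets the threshold of mitochondrial cell death, 9 of 17 rose and 3 fell (median 0.27). The death-promoting members Bcl2l11 (Bim, 1.85), Bok (0.90), Bbc3 (Puma, 0.88) and Bax (0.85) rose, and the protective members Bcl2l1 (Bcl-xL, -0.96) and Bcl2l2 (-0.32) fell, while protective Bcl2 rose by 0.48. The sizes for Bcl2l11 and Bbc3 were not shared by their other probes, which stood at 0.07 and 0.64, and at -0.04 and 0.01. Against overexpression 11 members of the Bcl2 family were higher and 2 lower. Overexpression also stood above control for Bcl2l11 (1.20) and Bax (0.92), whereas Bbc3 and Bcl2l1 were not called there.

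Histone genes were mostly higher. Of 52 tested, 39 rose, 2 fell and 11 were not called (median 0.68), 16 were at least 2-fold higher (as were 4.99% of all genes), and 31 rose at each of the 3 times. H4c8 ran from 415 (median 493) to 703 in control and from 1752 (median 1860) to 2110 after knockdown, and H2bc6 from 249 (median 335) to 440 and from 1009 (median 1214) to 1233. Both are genes of the clusters expressed in dividing cells, as are H4c11 (1.59) and H4c12 (1.46). H3f3b, which encodes the variant H3.3 used outside of replication, rose by 1.66. Histone genes of 1 type are near-identical copies, so a probe may read several of them and the 39 genes are not 39 separate measurements. Against overexpression the family was split, with 12 members higher and 14 lower, and H4c8 differed by 0.00 and was not called.

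Collagens and receptor tyrosine kinases were mostly higher. Of 19 collagen genes tested, 11 rose and 2 fell (median 0.52). Col4a1, a chain of the basement membrane collagen, ran from 52.7 (median 66.2) to 86.6 in control and from 631 (median 764) to 836 after knockdown, a rise of 2.63 (SE 0.0726), and its partner chain Col4a2 rose by 1.08. Col6a1 rose by 2.31 (second probe 1.96), and Col24a1 by 1.58 (second probe 1.51). Col18a1 rose by 3.05, but its second probe differed by 0.23 only. Against overexpression 10 collagens were higher and 1 lower. The fibrillar collagens of fibroblasts, Col1a1 and Col3a1, were below the cutoff on all 12 arrays.

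Markers of the other cells of a ganglion were read beside these genes. Of 12 fibroblast markers 11 were on the array, and their summed intensity ran from 6780.0 to 8893 in control, from 17631 to 22161 after knockdown and from 3397 to 3816 under overexpression. The sum was carried by Thy1, which neurons also make (control 2076 to 4255, knockdown 9942 to 13569), and by vimentin (Vim). Col1a1, Col3a1, Lum and Postn were below the cutoff on all 12 arrays. Of 6 tested, 4 rose and 1 fell: Pdgfra rose by 1.84, Thy1 by 1.81, Dcn by 1.13 (second probe 0.36) and Vim by 0.72, Twist2 fell by 0.42, and Twist1 stood at 0.05. The part of these cells in the rise of collagens was not tested. Of Schwann cell and satellite glia markers, Fabp7, Foxd3 and Cdh19 were below the cutoff on all 12 arrays, and 3 of 6 tested fell and 1 rose. Of the falls, Mbp stood at -0.99 on the probe used and at -0.04 and 1.52 on the others. Their sum, carried by the neurotrophin receptor Ngfr, ran from 18145 to 21199 in control and from 8535 to 10300.0 after knockdown. Endothelial markers summed to between 2172 and 3089 in control and between 2671 and 3531 after knockdown. The sum was carried by Egfl7 (control 2144 to 3043, knockdown 2567 to 3388), which was not called. Of 6 tested, Esam rose by 0.78 and Tek by 0.18. Tek's adjusted p (limma) of 0.0455 went to between 0.0696 and 0.197 when any of 9 of the 12 arrays was left out. Those 9 were all but uninjured control replicate 2 and replicate 1 of both constructs at 3 h. Cdh5, Cldn5, Emcn and Flt1 were below the cutoff throughout. Macrophage markers summed to between 101 and 172 in control and between 91.1 and 168 after knockdown, with Adgre1, C1qc, Cd14 and Fcer1g below the cutoff throughout. In RNA from whole cultures, fewer cells of a type and less RNA per cell cannot be told apart.

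Of 36 receptor tyrosine kinases tested, 22 rose and 3 fell (median 0.29), although the falls became 1 with values floored at the cutoff, with an offset of 16, with cyclic loess, and without any 1 of 6 arrays (12 h control replicate 1, uninjured or 12 h knockdown replicate 1 or 2, or 3 h knockdown replicate 1). Alk, a receptor of the developing nervous system, rose by 1.94 (SE 0.0694), from 59.9 (median 71.0) to 80.5 in control to between 411 and 487, and Ryk, a Wnt receptor that steers axons, by 1.64, with a second probe at 1.44. Egfr rose by 1.56, and the ephrin receptor genes Epha3 and Epha7 by 1.19 and 1.09, while Epha5 fell by 0.63. The neurotrophin receptor gene Ntrk3 rose by 0.47 and the GDNF receptor gene Ret by 0.26. Smaller families also had high medians. Of 11 Kruppel-like factors 6 rose and 0 fell (median 0.25), led by Klf9 (1.89) and Klf5 (1.05), and Klf6 rose by 0.73 and Klf7 by 0.25. In retinal neurons Klf6 and Klf7 are known to favor axon growth and Klf9 to hold it back. Of 16 glutathione S-transferases 9 rose and 3 fell (median 0.41), with Gstk1 at 1.44, Gstm2 at 1.31 and Mgst1 at -0.89. Of 13 cytochrome oxidase subunits 9 rose and 2 fell (median 0.31), most by 0.18 to 0.50 as for Cox5b and Cox6c, and Cox6a2, the isoform of heart and muscle, by 1.88.

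Nudix hydrolases and genes of cholesterol synthesis were mostly lower. Of 18 nudix hydrolases, which cleave nucleotides and coenzymes linked to another group, 13 fell and 1 rose (median -0.42). Nudt10, which acts on inositol pyrophosphates, ran from 588 (median 639) to 679 in control and from 79.8 (median 127) to 183 after knockdown, and Nudt7, a peroxisomal hydrolase of coenzyme A, from 421 (median 508) to 555 and from 120 (median 138) to 148. Nudt18 fell by 0.92 and Nudt5 rose by 0.52. Of 19 genes of cholesterol synthesis and its regulation, 14 fell and 1 rose (median -0.29). Tm7sf2, a sterol reductase, fell by 1.72 (SE 0.0868), from 604 (median 687) to 834 in control to between 146 and 194. Nsdhl fell by 1.33, with 3 further probes from -1.35 to -0.99, and Msmo1 by 0.88, whereas Hsd17b7, which acts in the same pathway, rose by 0.52. Against overexpression 8 members of this list were higher and 7 lower.

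Among mitochondrial proteins, the 3 lists described next held more falls than rises, unlike the cytochrome oxidase subunits. So did the mitochondrial ribosomal proteins, of which 30 of 71 fell and 13 rose (median -0.07). Of 33 subunits of NADH dehydrogenase, complex I of the respiratory chain, 15 fell and 5 rose (median -0.14). Ndufa3 ran from 3979 (median 4166) to 4822 in control and from 926 (median 1094) to 1196 after knockdown, Ndufs6 from 7335 (median 8178) to 9081 and from 2427 (median 2804) to 3039, and Ndufv1 from 6726 (median 7049) to 7672 and from 2989 (median 3193) to 3374. Ndufa6 fell by 0.93 and Ndufa1 rose by 0.73, so a few subunits with large falls stood beside many with differences near 0. Of 19 import proteins 10 fell and 2 rose (median -0.18), among them Timm8a1 (-1.18), which pairs with Timm13 (-0.29) in the space between the membranes, and Timm10 (-0.95), while Tomm34 rose by 0.96. Of 34 carriers of the SLC25 family 14 fell and 7 rose (median -0.11). Slc25a20, the carnitine-acylcarnitine carrier, fell by 1.61 (second probe -0.50), Slc25a39, the carrier of glutathione, by 1.49 and Slc25a10, the dicarboxylate carrier, by 1.29, and Slc25a45 rose by 1.13.

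Of 49 Rab GTPases, the switches of vesicle traffic, 19 fell and 14 rose (38.8% and 28.6%, median -0.09), near the 28.3% and 31.3% of all genes. Rab3d, a Rab of regulated secretion, ran from 4392 (median 5114) to 5355 in control and from 952 (median 1138) to 1224 after knockdown. Rab28 fell by 1.36, as did its second probe, Rab31 rose by 1.35 and Rab34 by 1.04. Of 22 semaphorins, plexins and neuropilins, the guidance cues of growing axons and their receptors, 10 fell and 4 rose (median -0.15). Sema5a ran from 3697 (median 4145) to 4456 in control and from 961 (median 1108) to 1262 after knockdown. It fell by 1.85 against control (second probe -1.79) and differed from overexpression by 0.01 (adjusted p = 0.956). Plxnd1, a plexin of vessels and neurons, fell by 0.60, and Sema4a rose by 1.03. The 42 families and lists not described had medians from -0.07 to 0.22.

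Markers of sensory neurons split. Of 15 tested, 5 fell, 2 rose and 8 were not called (median -0.08), and 4 of the falls were at least 2-fold. Calca, the gene of the pain-fiber peptide CGRP, ran from 13569 (median 15414) to 16996 in control and from 3392 (median 3514) to 3770 after knockdown, although its 2 other probes stood at -2.54 and -0.24. Tac1, the gene of substance P, ran from 2701 (median 3160) to 3401 and from 828 (median 931) to 1061, and Scn10a, a sodium channel of pain neurons, from 2390 (median 2493) to 2868 and from 754 (median 874) to 1096. Peripherin (Prph), a filament protein of small sensory neurons, fell by 1.38. Other markers of pain neurons were not called, with the ATP receptor gene P2rx3 at -0.01 and the capsaicin receptor gene Trpv1, dim here, at -0.10. Of markers shared by most sensory neurons or most neurons, Pou4f1 (-0.08), Nefm (-0.09), Elavl4 (0.04), Stmn2 (0.08), Uchl1 (0.09) and Avil (0.12) were not called, the tubulin gene Tubb3 fell by 0.27 and Rtn1 rose by 0.27. Isl1, a transcription factor of sensory neuron identity, rose by 0.97. The summed intensity of the neuronal markers ran from 105016 to 114240.0 in control, from 95148 to 100046 after knockdown and from 76752 to 82629 under overexpression. A few bright genes weigh most in this sum. From control to knockdown the median of Calca went from 15414 to 3514 and of Prph from 9398 to 3555. That of Rtn1 went up, from 20891 to 25315.

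**Figure D3:**
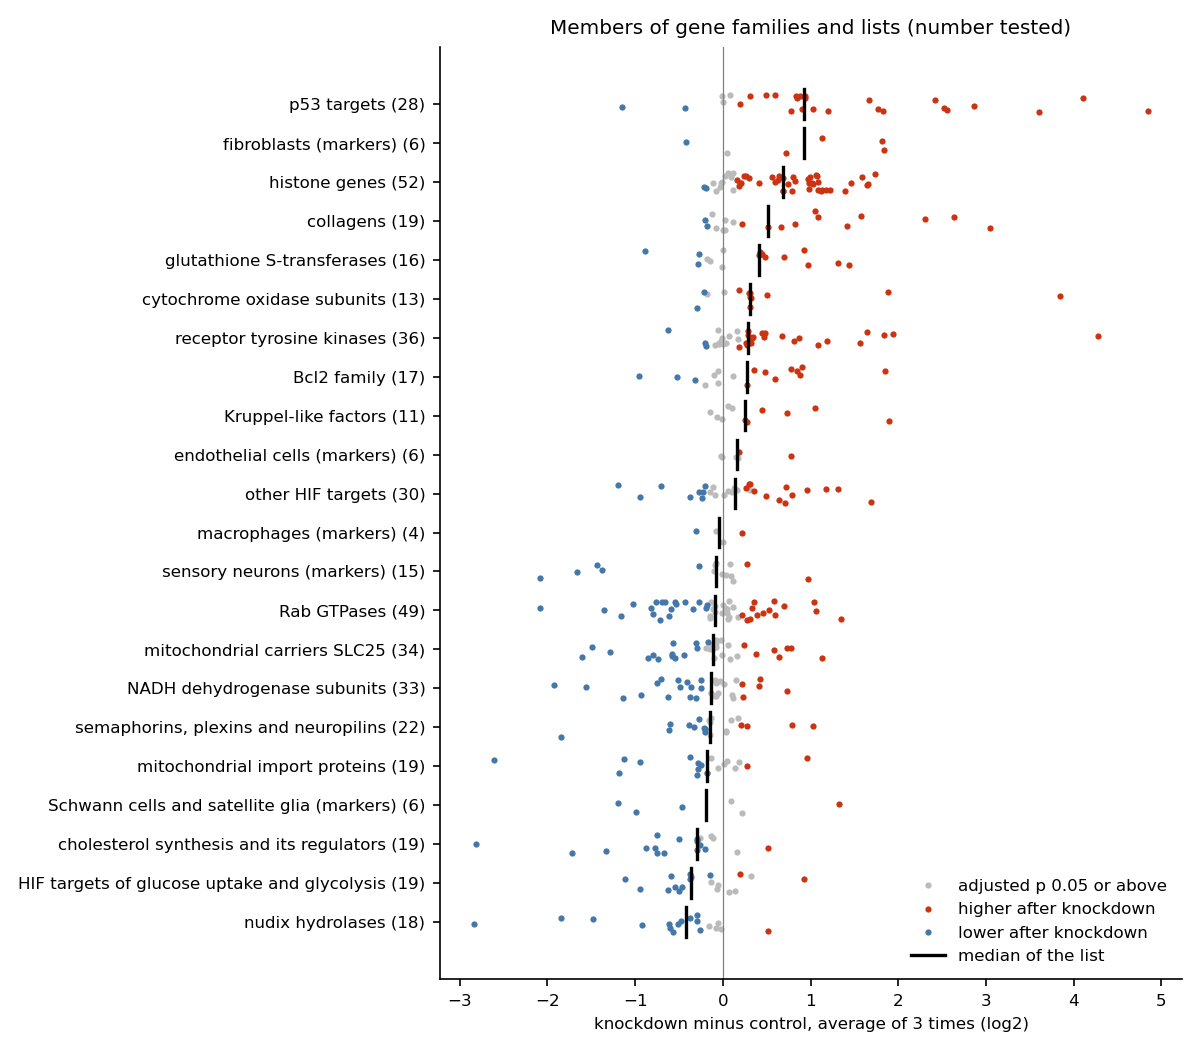
Knockdown minus control (log2, average of 3 times) of every tested member of the families and lists described, ordered by median. Each point is 1 gene, red where it rose, blue where it fell and grey where it was not called, the bar is the median, and the number tested is in parentheses. Medians run from -0.42 for nudix hydrolases to 0.92 for p53 targets, and most lists hold members on both sides of 0.

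The share of genes called was lowest in the dimmest genes. Genes were put in 4 classes of equal size by their mean over all 16 arrays. In the dimmest class, with a median intensity of 12.8, 31.4% were called. In the next classes, with median intensities of 65.9, 321 and 1763, 61.2%, 73.0% and 73.0% were called. The median SE was alike in all classes, from 0.0704 to 0.0764. The middle 90% of differences lay from -0.28 to 0.47 in the dimmest class, from -0.71 to 1.24 and from -1.11 to 1.30 in the middle classes, and from -1.14 to 0.94 in the brightest, so the spread was smallest in the dimmest class and did not widen further from the bright-middle to the brightest.

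Rises and falls were not placed alike along this range. Of genes at least 2-fold higher, 9 were in the dimmest class, 209 and 219 in the middle classes and 119 in the brightest. Of genes at least 2-fold lower, 0, 50, 175 and 191 were in the same classes. Among the 20 largest rises 19 belonged to the bright-middle class and 1, Phlda3, to the brightest, whereas 11 of the 20 largest falls were in the brightest. No test was made between classes, and as the mean over arrays includes the changed arrays, a rise from background and a fall to it do not start from the same brightness. Within the brightest class the 8 largest rises included secreted and matrix proteins. Mmp2, a protease of the basement membrane, ran from 639 (median 729) to 797 in control and from 5165 (median 5649) to 7335 after knockdown, and Gpx3, a secreted glutathione peroxidase, from 227 (median 299) to 349 and from 2294 (median 2601) to 3229. Rprm, a p53-induced arrest protein, rose by 2.54, Bag3, a co-chaperone of Hsp70, by 2.31, Tpbg, a membrane glycoprotein, by 2.22 and Cyria by 2.18. Slc11a1, a metal ion transporter, rose by 2.21, but its second probe differed by 0.15 only.

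**Figure D4:**
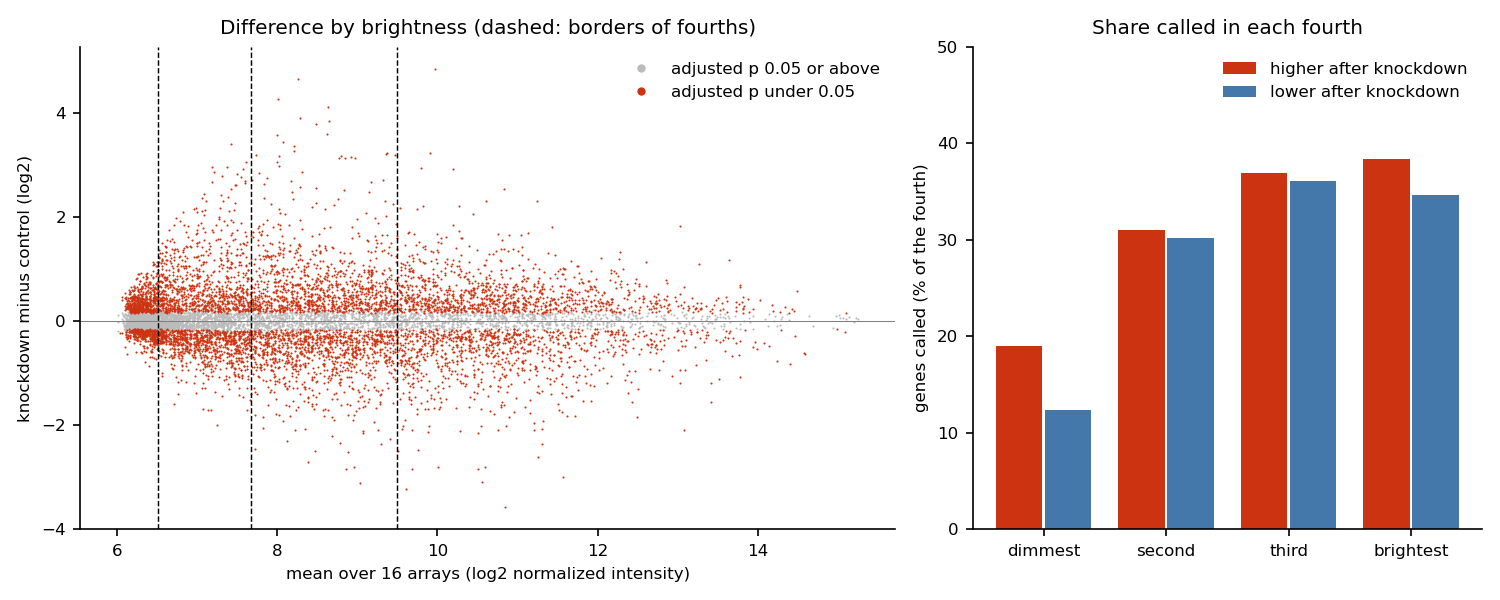
Left, knockdown minus control (log2) of each gene against its mean over 16 arrays (log2 normalized intensity), red where called, with dashed borders between the 4 classes. Right, the share of each class called higher (red) or lower (blue), in order of brightness. Both together make 31.4% in the dimmest class and 73.0% in each of the 2 brightest.

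Genes that crossed the cutoff altogether were mostly gains. Above 16 on all 6 knockdown arrays and on 0 of 6 control arrays were 211 genes, with a median bound of 3.04-fold, of which 162 were at least 2-fold and 57 at least 5-fold higher when control is set at the cutoff. The opposite held for 47 genes, with a median bound of 2.35-fold, of which 33 were at least 2-fold and 5 at least 5-fold lower. Efcab6, an EF-hand protein, ran from -7.70 to 9.59 in control and from 636 (median 777) to 866 after knockdown, at least 47.7-fold higher. Cdc42ep5, a regulator of septins downstream of Cdc42, was at least 27.6-fold higher, Clic6, of the chloride intracellular channel family, at least 26.6-fold, and Serping1, the inhibitor of complement C1, and Lrrc15, a membrane protein, at least 22.0-fold each. Ddit4l, an inhibitor of mTOR signaling like Ddit4, was at least 19.4-fold higher, Ryr1, the calcium release channel of muscle, at least 17.6-fold on the probe used, and Nupr1 at least 17.1-fold. The 3 further probes of Ryr1 stood between -0.03 and 2.35, so its probes did not all show the gain. Overexpression was also called above control for all 8 of these gains, on the same control arrays. Its difference from control ran from 2.19 for Efcab6 and 1.58 for Lrrc15 to 0.23 for Cdc42ep5 and 0.22 for Ddit4l. Knockdown was called above overexpression for all 8.

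Among genes lost below the cutoff, Npff, the gene of neuropeptide FF, a modulator of pain, ran from 138 (median 172) to 210 in control and from 0.546 (median 6.70) to 15.9 after knockdown, at least 10.7-fold lower. Igfbpl1, related to binding proteins of insulin-like growth factors, was at least 8.88-fold lower. It was as low under overexpression, with a difference between the 2 of -0.03 (adjusted p = 0.819; limma). Mrgpra7, of a receptor family restricted in mice to sensory neurons of pain and itch, was at least 5.19-fold lower. Abhd1, Cetn2 (centrin, a centriole protein), Sptlc2 and Usp46 (a deubiquitinase) were at least 6.36-fold, 4.34-fold, 3.96-fold and 3.85-fold lower. On the control arrays the named losses lay between 45.8 for Sptlc2 and 211 for Igfbpl1. On the knockdown arrays the named gains lay between 169 for Nupr1 and 866 for Efcab6. Of the 8 losses with the largest bound, 6 were also called below control under overexpression, while Mrgpra7 (-0.14) and Usp46 (-0.05) were not. The share of all genes so called is not given here.

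Knockdown was then set against overexpression of human HIF-1α, the opposite treatment of the same factor. Limma called 6997 genes (62.7%), 3786 higher in knockdown (34.0%) and 3211 lower (28.8%). Overexpression had 1 array uninjured, 2 at 3 h and 1 at 12 h. At the times with 1 array its spread is not measured, and the fit takes it from the other groups. The comparison with overexpression uses the same knockdown arrays as the one against control, so for single genes the values stand side by side only. HIF targets were lower in knockdown than in overexpression: 16 of the 19 genes of glucose uptake and glycolysis were lower and 2 higher, and of the 30 other targets 26 were lower and 1 higher. Slc2a1, which was 0.93 above control, stood at -2.34 against overexpression. P4ha2 and Plod2, enzymes that modify collagen, were 1.31 and 1.18 above control and stood at -1.38 and -0.88 against overexpression. Ddit4 was the 1 that was higher, at 1.69 above control and 0.57 above overexpression (adjusted p = 1.61e-06).

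Most of the strongest differences from control were shared in direction by overexpression, to varied degrees. Against control, overexpression was called in the same direction as knockdown for 18 of the 20 largest rises and in the opposite direction for 2. For the 20 largest falls these counts were 14 and 5. Both comparisons use the same control arrays, and the genes were picked for their distance from those arrays, which favors agreement in direction. The share of all genes called in overexpression against control is not given here, so these counts lack a share to be read against. Knockdown was called beyond overexpression in the same direction for all 20 rises and all 20 falls. Mmp2 was 2.92 above control and 4.99 above overexpression, and Thy1 1.81 and 5.63 above them. Aard was 3.14 above control and 4.14 above overexpression. For these 3 genes control lay between knockdown and overexpression. Phlda3, at 4.85 above control, was only 1.01 above overexpression, Mfge8 3.15 and 0.89, and Egr1 3.18 and 0.84, so overexpression arrays stood nearer to knockdown than to control. Among the falls, Sccpdh stood at -2.80 against control and -3.89 against overexpression, and Amz2 at -2.35 and -3.43. Sub1 stood at -3.11 against control and -0.87 against overexpression, and Ifit3 at -2.46 and -0.42. Hmgn2 stood at -3.10 and -3.15, so control and overexpression stood close together for this gene. Calca stood at -2.09 against control and -1.85 against overexpression. Prph, at -1.38 against control, differed from overexpression by -0.07 (adjusted p = 0.481), and Ngfr, at -1.19 against control, by 0.03 (adjusted p = 0.763).

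**Figure D5:**
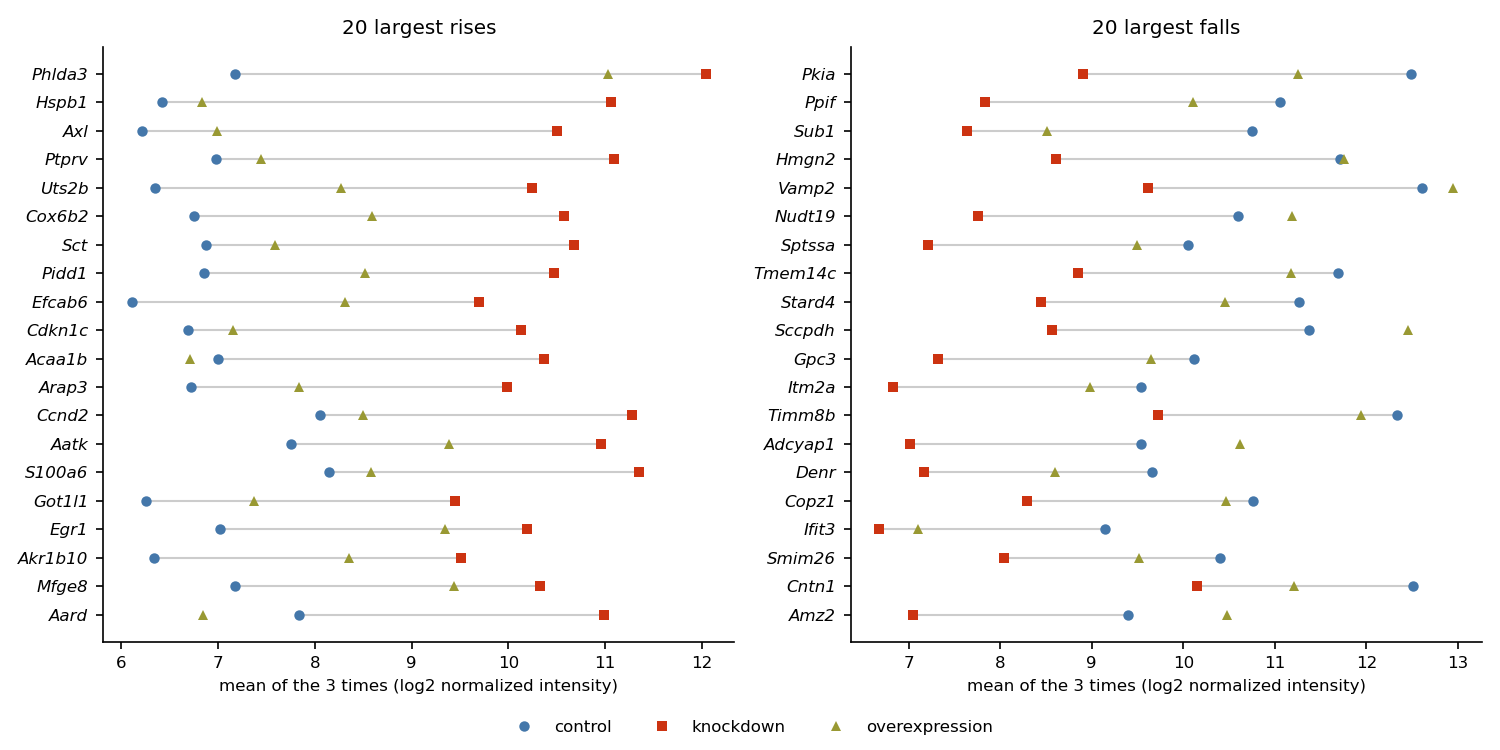
Mean log2 normalized intensity over the 3 times of control (blue circles), knockdown (red squares) and overexpression (olive triangles) for the 20 largest rises (left) and falls (right), with a line from control to knockdown. The genes were chosen for the distance between circle and square. Overexpression was called on the knockdown side of control for 18 of the 20 rises and 14 of the 20 falls. The same control arrays serve both comparisons, and the share over all genes is not given here. The triangle lies beside knockdown for some (Sub1, Ifit3), beside control for others (Hspb1, Hmgn2) and beyond control for a few (Aard, Sccpdh, Amz2).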

How the data were processed

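RNA was amplified and labeled with biotin, per the labels' protocols, and the submitters' processing notes name GenomeStudio, with no version. The deposited intensity values of 25697 probes have the form of linear intensities already background-subtracted and quantile-normalized between arrays, with a range of -21.7 to 40784.5, 27.2% of values negative and array medians of 13.3 to 13.5. How the authors made them is not given in the sources used here. A table before normalization holds 32 columns of signal and detection p that could be tied to no sample by name and were not used, so no detection p entered the filter.

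From the deposited intensities, limma 3.58.1 in R 4.3.3 applied normexp with an offset of 50, quantile normalization and log2. Symbols were updated with RefSeq of GRCm38.p6. A probe was kept if above 16 on at least 2 of 16 arrays (16 is 2.49 background SDs of 6.42 above 0), which left 15086 probes, and the brightest probe stood for each of 11151 genes. All 16 arrays entered 1 fit with a mean for each of 9 groups (7 residual degrees of freedom, 13.2 from the prior). The fit was tested on simulated data. A bound takes 16 for the group below it.

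The arrays, genes and 64 gene lists were chosen with earlier results of these data known, and lists are described without a test. Named are Hif1a, the 20 largest rises and falls, the 8 largest of each in the brightest class, the 8 largest bounds each way, the 6 smallest p between times, up to 4 genes called in opposite directions, and up to 4 members of each described list with the smallest p. Other members of lists, and genes at the edge of the rule, were picked after their values were seen. Lists described are the 8 with the highest and the 8 with the lowest medians, HIF and p53 targets, and cell type markers. Clone or locus names are not printed, and a few genes the rule names are not reported here. The alternatives tried were another background treatment, offset, normalization, filters, probe rule, variance prior, sample set, the replicate number as a block, and leaving out each array.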

Additional observations from a re-analysis of the deposited data

Results flagged for a closer look

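In 8 of 142 sets of 6 arrays, over 71 named genes, 1 array stood far from the other 5 by Dixon's test, and chance flags about 1 in 20 such sets. Values are log2 normalized intensities. For Ccnd2, uninjured control replicate 1 stood at 7.31 with the other control arrays from 8.01 to 8.34, and uninjured knockdown replicate 1 at 11.03 with the others from 11.29 to 11.40. For Aatk, uninjured control replicate 1 stood at 7.95, the others from 7.68 to 7.74. S100a6 stood at 11.08 on uninjured knockdown replicate 2, the others from 11.36 to 11.47, and Gpc3 at 7.69 on uninjured knockdown replicate 1, the others from 7.19 to 7.29. Nudt19 stood at 10.70 on 3 h control replicate 1, the others from 10.55 to 10.60. Serping1 stood at 8.95 on 12 h knockdown replicate 2, the others from 8.60 to 8.70, and Igfbpl1 at 8.12 on uninjured control replicate 2, the others from 7.55 to 7.70. In each case the array stayed on its own group's side, and leaving out any single array kept these genes called in the same direction.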

How the results depend on the processing

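The labels give the arrays replicate numbers, but not every pair of groups had same-numbered arrays that deviated together (correlations from -0.12 to 0.244, and from 0.109 to 0.168 between control groups), so the numbers were not taken as pairs. With the replicate number as a block, 3530 genes rose and 3206 fell in the average, 556 and 416 of them at least 2-fold, 0 changed with time, and Hif1a stood at -0.59. With deposited values floored at 16, 1049 genes were at least 2-fold higher, 884 at least 2-fold lower, 10 were called in opposite directions at 2 times and 3 changed with time. Opposite calls numbered 3 when a probe had to pass 16 on 8 or more arrays, with no filter, and with a trended robust prior, and the 8-array filter left 323 calls in the dimmest class, which it thins by construction. With 1 array left out, opposite calls ranged from 2 to 8, and 0 to 1 genes changed with time, the 1 without 12 h control replicate 2. Counts of genes higher in the average ranged from 3288 to 3499 with 1 array left out and from 3104 to 3619 under the other settings, and of genes lower from 2968 to 3176 and from 2984 to 3250. Hif1a ranged from -1.06 to -0.54 with an adjusted p of at most 0.000751. The 20 largest rises stayed between 2.13 and 6.71 and the 20 largest falls between -3.89 and -1.59 under every setting that gave a value. Mbp reversed, to 0.16, when a gene's probes were averaged, as its probes disagree. Calls of single named genes also changed under some settings for Tek, Cox4i2 and C1qb, which lost theirs, and for Ninl, Egfl7 and Pecam1, which gained one. Counts of list members called moved by over 1.5 times in 40 of 704 cases with 1 array left out and in 13 of 396 under the other settings. The cause of the other shifts was not tested. Knockdown could not be set against overexpression without the lone overexpression array of a time or with 12 arrays only, and 14 named genes, Hif1a among them, did not pass the 8-array filter. Signal over background limits what dim genes show, and the number of arrays limits the precision.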
